A study of Homo sapiens with 8 samples.

Results

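The ABC transporter superfamily was read out in HEL92.1.7 cells and in their OTX015 persister-resistant derivative. Members were the genes whose symbol in the deposited coding-gene table starts with ABC, a subfamily letter from A to G and a number; 45 of the 19718 genes in the table met this rule. The 6 drug efflux members (ABCB1, ABCC1, ABCC3, ABCC4, ABCC5 and ABCG2) were set beside the other 39. The 4 groups, with 2 libraries each and 8 in all, were HEL OTX P/R cells given 1000 nM OTX015 for 8 hours, untreated HEL OTX P/R cells, HEL92.1.7 cells given the same OTX015 treatment, and untreated HEL92.1.7 cells. HEL92.1.7 is a human erythroleukaemia line whose source the labels give as sAML, and OTX015 is an inhibitor of the bromodomains of BET proteins. All groups were grown in the same serum-supplemented medium. The derivative is called P/R and HEL92.1.7 parental below; the sources used here do not say whether P/R is 1 clone or a pool. The series' design text describes the 2 libraries of a group as biologic replicates from cells that were treated separately.

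ABC proteins carry a conserved ATP-binding cassette, and most of them use ATP hydrolysis to move a substrate across a membrane. Members of the B, C and G subfamilies export drugs, conjugates and lipids from cells, others serve mitochondria, peroxisomes or lysosomes, and the E and F subfamilies have no membrane part and act on ribosomes. In leukaemia the family is best known for drug efflux through ABCB1 (P-glycoprotein), ABCC1 (MRP1) and ABCG2 (BCRP). In red cell precursors the mitochondrial members take part in the supply of iron-sulphur clusters and haem.

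Values are quantile-normalized FPKM, an abundance per length of transcript, so levels can be compared between genes; library depth is unknown. Replicates correlated at r = 0.9957 to 0.9966 on the log2(FPKM + 1) scale across the 11255 tested genes, against 0.9591 to 0.9846 between groups; genes are not independent replicates. HEXIM1, whose transcript is a known marker of BET inhibition, was 2.80 times as high under OTX015 in P/R cells and 3.30 times as high in parental cells. All 10 erythroid and megakaryocyte markers examined stood at 34.6 FPKM or more in every library. None of 5 lymphocyte markers reached 1 FPKM. Of 4 epithelial markers, EPCAM and CDH1 never exceeded 0.0708 FPKM. With KRT8 and KRT18 included, that list summed to 109 to 110.4 FPKM in P/R cells under OTX015 and 90.1 to 91.6 FPKM in untreated P/R cells, against 17.1 to 17.8 FPKM in parental cells under OTX015 and 17.5 to 20.4 FPKM in untreated parental cells. Of 4 stromal markers, VIM and PECAM1 reached 1 FPKM and COL1A2 was at 0 throughout, and the list summed to 411 to 493 FPKM over all libraries. The part of either list in the results on P/R cells was not tested.

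Fewer than 1 in 2 members reached a level that could be tested. A gene was tested if it reached 1 FPKM in at least 2 libraries; 22 of the 45 members did, 5 of the 6 drug efflux members and 17 of the other 39. Averaged over the 8 libraries, 17 members had at least 10 FPKM and 7 had at least 30 FPKM. ABCF1, a translation initiation factor, was the most abundant member in every group, at 100.1 to 103 FPKM in P/R cells under OTX015, 93.0 to 96.2 FPKM in untreated P/R cells, 108 to 110.2 FPKM in parental cells under OTX015 and 99.7 to 107 FPKM in untreated parental cells. In untreated cells of both lines ABCC4 and then ABCE1 came next in mean level. Under OTX015, ABCB6 and then ABCB1 came next in both lines. Of the 23 untested members, 14 never exceeded 0.1 FPKM, and ABCA5, ABCC8, ABCC12 and ABCG8 were listed at 0 in all 8 libraries.

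**Figure D1:**
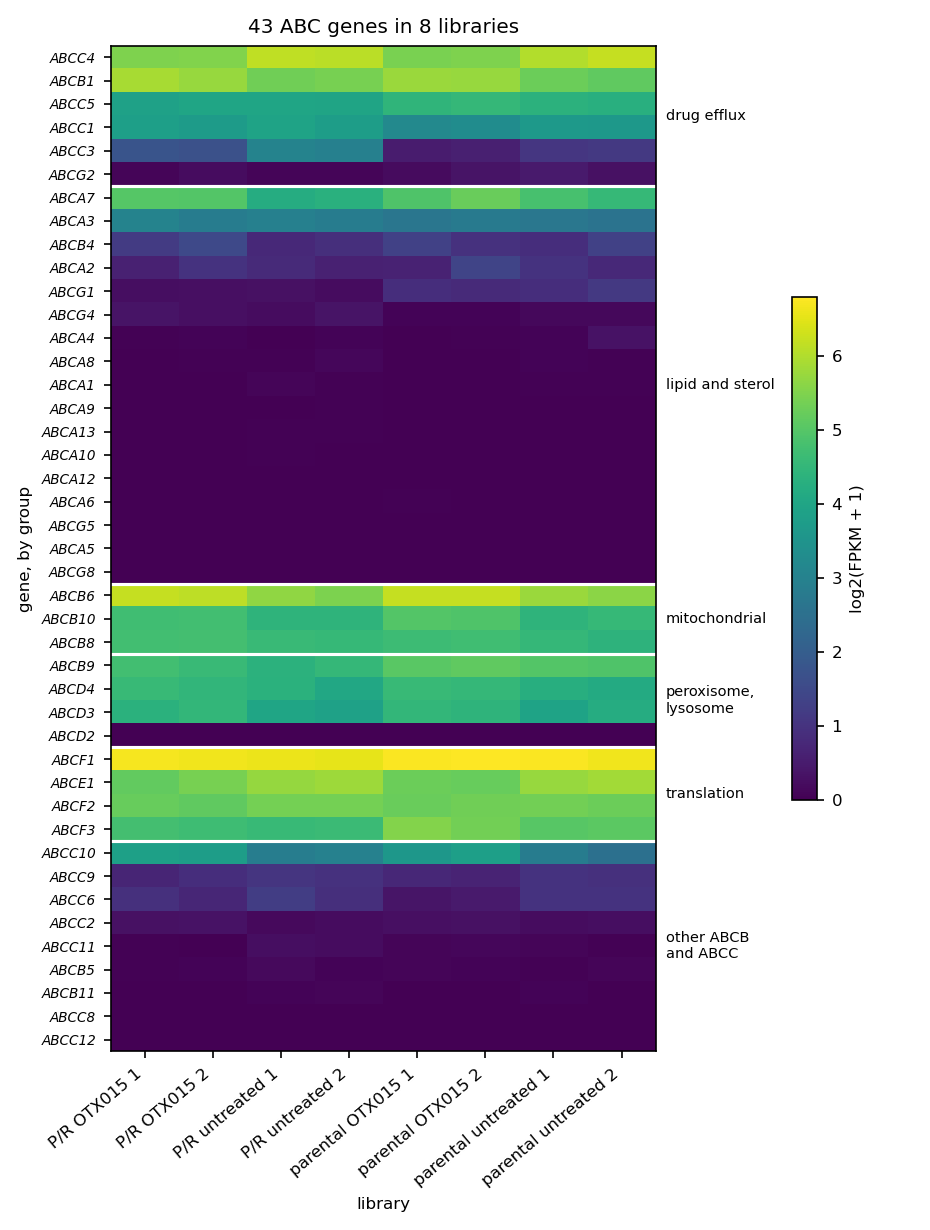
Level of 43 ABC genes (rows, grouped by role and ordered within a group by mean level) in the 8 libraries (columns), coloured by log2(FPKM + 1). Drug efflux members ABCC4 and ABCB1, mitochondrial ABCB6 and the translation group were the brightest rows, while most lipid and sterol members were near 0.

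Among the drug efflux genes, ABCB1 and ABCC4 were the abundant ones, ABCC5 and ABCC1 were intermediate, ABCC3 was low outside untreated P/R cells, and ABCG2 was barely detected. ABCB1, the broad-specificity drug pump P-glycoprotein, had 59.3 and 53.2 FPKM in P/R cells under OTX015, against 39.2 and 41.4 FPKM in untreated P/R cells. Parental cells had 53.7 and 52.9 FPKM under OTX015, against 37.9 and 34.1 FPKM untreated. In both lines the treated libraries lay above the untreated ones without overlap. As in every bulk measurement, a change in the share of cells that express a gene and a change in RNA per cell cannot be told apart. ABCB1 rose 1.40-fold in P/R cells (log2 change 0.47 ± 0.07 SE, adjusted p = 0.000721) and 1.48-fold in parental cells (log2 change 0.56 ± 0.07 SE, adjusted p = 0.000217).

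ABCC4 (MRP4), an exporter of cyclic nucleotides, nucleotide analogues and eicosanoids, went the other way. It had 43.8 and 44.8 FPKM in P/R cells under OTX015, against 69.96 and 67.6 FPKM in untreated P/R cells. Parental cells had 41.9 and 43.4 FPKM under OTX015, against 63.4 and 72.2 FPKM untreated. Treated libraries lay below untreated ones in both lines, and the fold of means was 0.644 in P/R cells (log2 change -0.62 ± 0.07 SE, adjusted p = 9.17e-05) and 0.629 in parental cells (log2 change -0.65 ± 0.07 SE, adjusted p = 4.92e-05). ABCB1 thus held 43.3% of the summed FPKM of the 6 efflux genes in P/R cells under OTX015, against 27.9% untreated, and ABCC4 held 34.0%, against 47.6%. In parental cells the ABCB1 share was 42.1% under OTX015, against 26.5% untreated, and the ABCC4 share 33.7%, against 49.95%. The order of the top efflux genes was therefore ABCB1 above ABCC4 under OTX015 and ABCC4 above ABCB1 without it, with no overlap of the libraries of the 2 genes in any group.

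ABCC3 (MRP3), an exporter of bile acids and glucuronide conjugates, was the efflux gene that differed most between the lines. It had 2.37 and 2.20 FPKM in P/R cells under OTX015 and 7.21 and 6.77 FPKM in untreated P/R cells. Parental cells had 0.421 and 0.524 FPKM under OTX015 and 1.11 and 1.18 FPKM untreated. The 4 groups did not overlap, and even treated P/R cells stood above untreated parental cells. ABCC3 was 6.09-fold higher in untreated P/R than in untreated parental cells (log2 difference 1.89 ± 0.10 SE, adjusted p = 3.56e-06). Under OTX015 it was 4.84-fold higher (log2 difference 1.16 ± 0.10 SE, adjusted p = 5.55e-05). OTX015 lowered ABCC3 in both lines, to 0.327 of the untreated level in P/R cells (log2 change -1.28, adjusted p = 2.33e-05) and to 0.411 in parental cells (log2 change -0.55, adjusted p = 0.00209).

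ABCC1 (MRP1), which exports glutathione conjugates, had 13.3 and 12.3 FPKM in P/R cells under OTX015, against 14.2 and 12.9 FPKM in untreated P/R cells, and these ranges overlapped (log2 change -0.08, adjusted p = 0.483). In parental cells it had 8.11 and 8.93 FPKM under OTX015, against 11.7 and 11.4 FPKM untreated, a fall that passed (log2 change -0.40, adjusted p = 0.00372). ABCC1 was 1.5-fold higher in P/R than in parental cells under OTX015 (log2 difference 0.53 ± 0.09 SE, adjusted p = 0.00171). Without drug the ratio was 1.17 and did not pass (log2 difference 0.21, adjusted p = 0.115).

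ABCC5 (MRP5), an exporter of cyclic nucleotides and nucleotide analogues, was the only tested efflux gene that passed as lower in P/R cells. It had 13.8 and 14.9 FPKM in P/R cells under OTX015 and 14.9 and 14.8 FPKM in untreated P/R cells. Parental cells had 20.7 and 21.99 FPKM under OTX015 and 19.5 and 18.4 FPKM untreated. P/R libraries lay below parental ones in both states, at 0.673 of the parental level under OTX015 (log2 difference -0.54 ± 0.07 SE, adjusted p = 0.000548) and 0.783 untreated (log2 difference -0.33 ± 0.07 SE, adjusted p = 0.00873). OTX015 changed ABCC5 past the threshold in neither line (adjusted p = 0.653 in P/R cells and 0.0807 in parental cells).

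ABCG2 (BCRP), an exporter of many drugs, urate and porphyrins, stayed below the filter. It had 0.0694 and 0.160 FPKM in P/R cells under OTX015 and 0.0629 and 0.0683 FPKM in untreated P/R cells. Parental cells had 0.138 and 0.288 FPKM under OTX015 and 0.403 and 0.228 FPKM untreated. No library reached the 1 FPKM needed for testing, and no fold is given at this level.

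**Figure D2:**
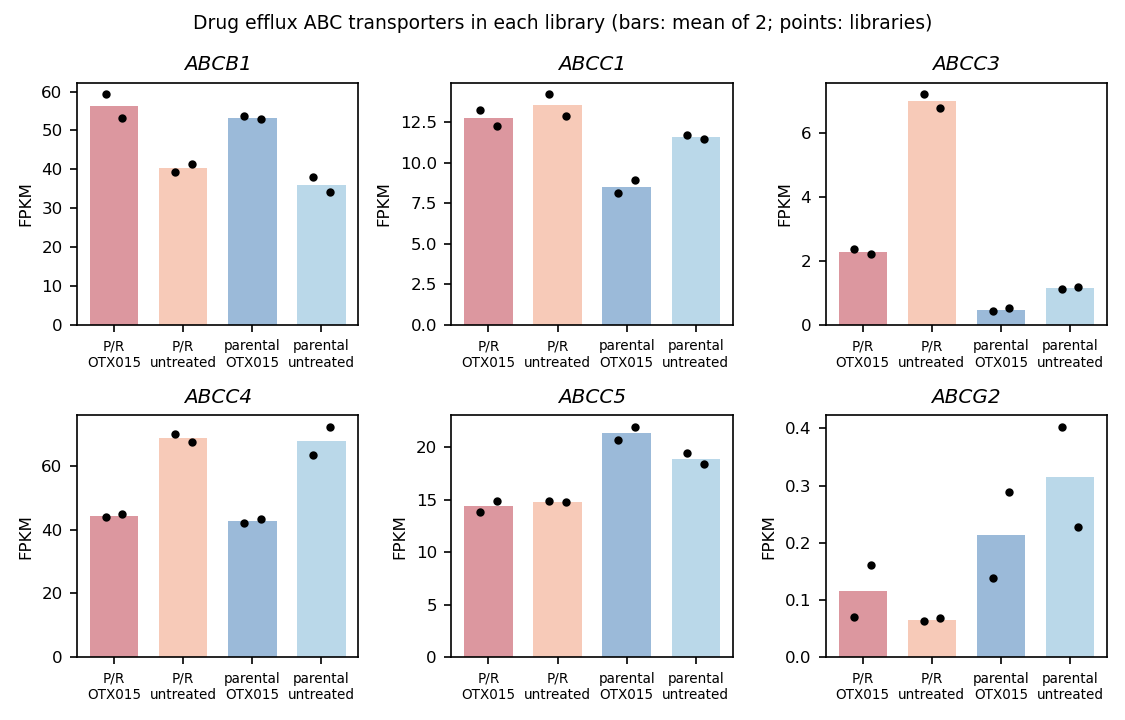
FPKM of the 6 drug efflux genes in each library, on a linear axis from 0 with its own scale for each gene; bars are means of 2 libraries and points are the libraries. ABCB1 was higher and ABCC4 lower under OTX015 in both lines, ABCC3 stood highest in untreated P/R cells at 7.21 and 6.77 FPKM, and ABCG2 stayed at or below 0.403 FPKM.

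Summed over the 6 efflux genes, P/R cells had 133 and 128 FPKM under OTX015, against 146 and 143 FPKM untreated, and parental cells had 125 and 128 FPKM under OTX015, against 134 and 138 FPKM untreated. The other 39 members summed to 473 and 465 FPKM in P/R cells under OTX015, against 416 and 407 FPKM untreated, and to 506 and 514 FPKM in parental cells under OTX015, against 456 and 439 FPKM untreated. The efflux share of the family total was 21.9% and 21.5% in P/R cells under OTX015, against 25.9% and 26.1% untreated, and 19.8% and 19.9% in parental cells under OTX015, against 22.7% and 23.8% untreated. The share was thus lower in every treated library than in every untreated library of the same line. These sums rest mainly on the abundant members.

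The treatment comparison asks what 8 hours of BET inhibition did to the family in each line. In P/R cells 9 of 22 tested members rose, 4 fell and 9 did not pass, where 44.3% of all tested genes passed, 22.5% up and 21.8% down. In parental cells 10 rose, 4 fell and 8 did not pass, where 50.4% of all tested genes passed, 25.7% up and 24.7% down. The median log2 change of the tested members was 0.16 in each line, beside 0.015 over all tested genes in P/R cells and 0.021 in parental cells. Of the 5 tested efflux members, 1 rose and 2 fell in P/R cells (median -0.08) and 1 rose and 3 fell in parental cells (median -0.40). With 5 members each median is the value of a single gene, here ABCC1 in both lines. Of the other 17, 8 rose and 2 fell in P/R cells (median 0.22) and 9 rose and 1 fell in parental cells (median 0.22). These medians moved with the settings and libraries. The efflux median ran from -0.15 without P/R untreated replicate 2 to -0.036 without P/R untreated replicate 1 in P/R cells, and from -0.47 without parental OTX015 replicate 2 to -0.12 with a floor of 5 FPKM on the mean in parental cells. That of the others ran from 0.018, with all members unfiltered, to 0.29 in P/R cells, and from 0.013, likewise unfiltered, to 0.35 with the floor of 5 FPKM in parental cells. Between the lines, 8 members rose in both, 3 fell in both and 0 had opposite calls. The shares of all tested genes with such joint calls are not given here, so these counts do not set the members apart.

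The largest rise was that of ABCC10 (MRP7), an MRP-type exporter outside the efflux list. It had 13.6 and 12.8 FPKM in P/R cells under OTX015, against 6.40 and 6.94 FPKM in untreated P/R cells. In parental cells it had 11.1 and 13.2 FPKM under OTX015, against 6.25 and 4.71 FPKM untreated. Treated and untreated libraries did not overlap; ABCC10 rose 1.98-fold in P/R cells (log2 change 0.89 ± 0.13 SE, adjusted p = 0.000489) and 2.22-fold in parental cells (log2 change 1.03 ± 0.13 SE, adjusted p = 0.000158).

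The mitochondrial group of 4 had 2 members that rose in P/R cells and 3 in parental cells. ABCB6, which is linked to porphyrin transport and carries the Langereis blood group, had 72.6 and 68.4 FPKM in P/R cells under OTX015, against 49.9 and 43.3 FPKM untreated. Parental ABCB6 levels were 72.3 and 72.9 FPKM under OTX015, against 53.8 and 48.4 FPKM untreated. It rose 1.51-fold in P/R cells (adjusted p = 0.00029) and 1.42-fold in parental cells (adjusted p = 0.000594). ABCB10, an inner membrane transporter needed for haemoglobin synthesis in red cell precursors, had 25.2 and 25.7 FPKM in P/R cells under OTX015, against 20.4 and 20.3 FPKM untreated. In parental cells ABCB10 had 30.6 and 29.5 FPKM under OTX015, against 20.3 and 22.3 FPKM untreated. Its log2 change was 0.31 in P/R cells (adjusted p = 0.00438) and 0.48 in parental cells (adjusted p = 0.000333). ABCB8, a further inner membrane member, rose in parental cells (log2 change 0.22, adjusted p = 0.0195) and did not pass in P/R cells (log2 change 0.18, adjusted p = 0.0532).

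All 4 tested members of the peroxisome and lysosome group rose in P/R cells and 3 of 4 in parental cells. ABCD3, a peroxisomal fatty acid transporter, had 19.4 and 21.8 FPKM in P/R cells under OTX015, against 14.99 and 13.7 FPKM untreated. Parental ABCD3 levels were 21.6 and 20.3 FPKM under OTX015, against 14.5 and 17.4 FPKM untreated, without overlap in either line. ABCD3 rose by 0.49 in P/R cells and 0.38 in parental cells on the log2 scale (adjusted p = 0.00349 and 0.0111). ABCD4, which exports vitamin B12 from lysosomes, rose by 0.31 in P/R and 0.35 in parental cells (adjusted p = 0.0261 and 0.0133). ABCB9, a lysosomal peptide transporter, rose by 0.22 in P/R cells (adjusted p = 0.0493) and did not pass in parental cells (log2 change 0.16, adjusted p = 0.127). ABCD2, a peroxisomal member, never exceeded 0.00892 FPKM.

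The lipid and sterol group was mostly silent, with 4 of 17 members tested. ABCA7, linked to phospholipid export and phagocytosis, had 30.9 and 30.5 FPKM in P/R cells under OTX015, against 17.5 and 19.1 FPKM untreated. Parental ABCA7 levels were 29.4 and 36.7 FPKM under OTX015, against 27.0 and 22.5 FPKM untreated. It rose 1.68-fold in P/R cells (log2 change 0.72 ± 0.11 SE, adjusted p = 0.000868) and 1.34-fold in parental cells (log2 change 0.40 ± 0.11 SE, adjusted p = 0.0149). ABCA3, a lipid transporter of lamellar bodies, lay between 5.06 and 7.17 FPKM, and ABCA2 and ABCB4 did not exceed 1.81 FPKM; these 3 passed in no comparison.

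The translation group was the one non-efflux group with falls. ABCE1, which splits ribosomes after termination, had 34.8 and 41.5 FPKM in P/R cells under OTX015, against 52.1 and 54.8 FPKM untreated. In parental cells it had 37.4 and 36.5 FPKM under OTX015, against 53.2 and 56.4 FPKM untreated, so treated and untreated libraries did not overlap in either line. ABCE1 fell to 0.714 of the untreated level in P/R cells (log2 change -0.48, adjusted p = 0.00114) and to 0.675 in parental cells (log2 change -0.56, adjusted p = 0.000399). ABCF2 fell in P/R cells (log2 change -0.20, adjusted p = 0.0227) and did not pass in parental cells (-0.04, adjusted p = 0.65). ABCF3 rose in parental cells (log2 change 0.39, adjusted p = 0.00201), with 45.8 and 39.9 FPKM under OTX015, against 32.0 and 32.8 FPKM untreated. In P/R cells ABCF3 had 26.1 and 24.6 FPKM under OTX015, against 23.01 and 23.9 FPKM untreated, and did not pass (log2 change 0.11, adjusted p = 0.263). ABCF1 passed in neither line.

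Several smaller calls depended on the libraries and settings used. A lost call did not always mean a smaller change. ABCF2 in P/R cells was at -0.21 without P/R untreated replicate 1, beside -0.20 with all libraries. ABCB9 in P/R cells stayed at 0.22 without each parental library. In P/R cells, ABCD4 was lost without OTX015 replicate 1 or untreated replicate 2 (adjusted p = 0.141 and 0.202), without the filter (0.07) and in a fit of only the groups compared (0.0538). ABCF2 was lost without P/R OTX015 replicate 2, untreated replicate 1 or untreated replicate 2 (0.115, 0.0824 and 0.104). The P/R rise of ABCB9 was lost under 11 of 16 alternatives, among them P/R OTX015 replicate 1 left out (0.245), P/R untreated replicate 1 left out (0.296), each parental library left out (0.0607 to 0.0613) and the replicate block (0.0665). In parental cells, ABCA7 and ABCB8 were lost without OTX015 replicate 2 (0.118 and 0.102) or untreated replicate 2 (0.112 and 0.119), and ABCA7 also without the filter (0.0575). ABCD3 was lost there without OTX015 replicate 1 or untreated replicate 1 (0.0656 and 0.0813), and ABCD4 without OTX015 replicate 1 or untreated replicate 2 (0.0665 and 0.0761). ABCB8 passed in P/R cells without either untreated parental library (0.048 and 0.0475), and ABCB4 passed in P/R cells without any one of the 4 parental libraries (0.0334 to 0.0495).

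**Figure D3:**
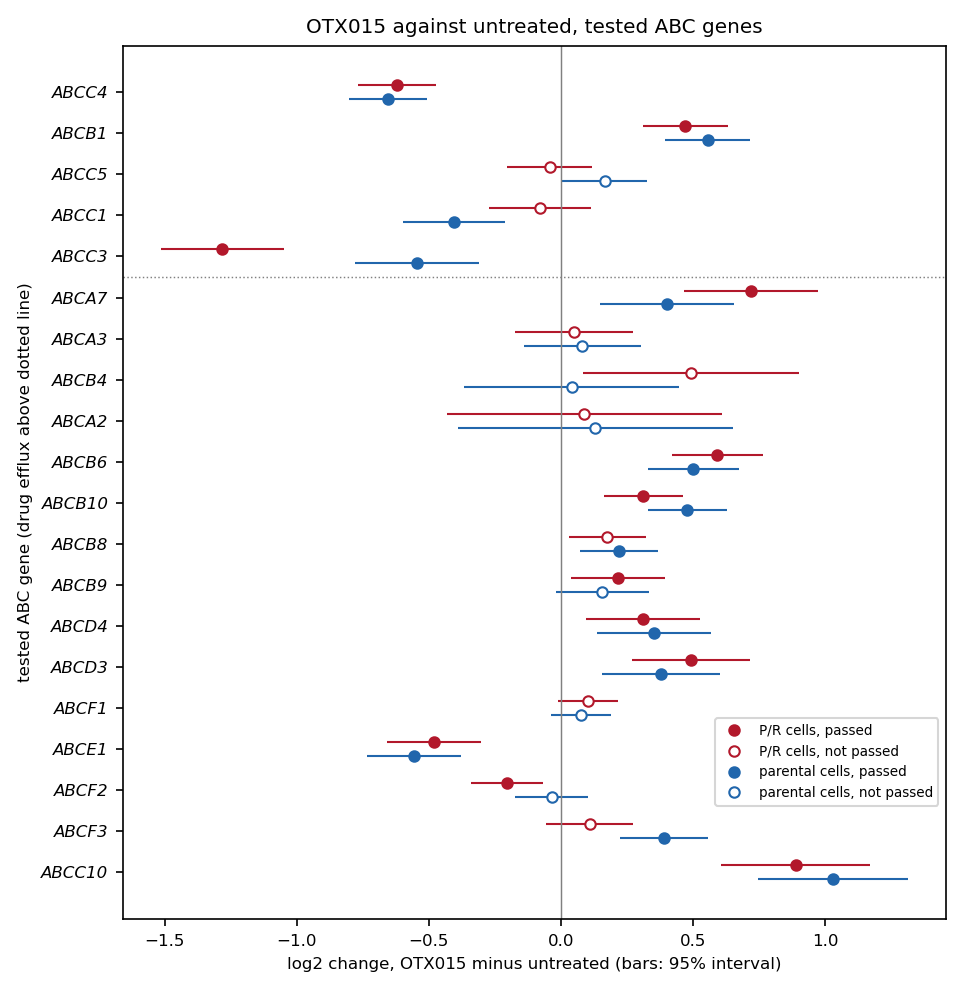
Change under OTX015 of 20 tested ABC genes, as the log2(FPKM + 1) difference of OTX015 minus untreated (horizontal axis) with 95% intervals, in P/R cells and parental cells; filled points passed at an adjusted p under 0.05. ABCC10 stood farthest to the right in both lines, at 0.89 and 1.03, and ABCC3 in P/R cells farthest to the left, at -1.28.

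The promoter windows of members that moved in the same direction in both lines are shown to set members that rose (ABCC10 and ABCB6) beside members that fell (ABCC4 and ABCE1). Each window runs from 250 bases before to 50 after the RefSeq gene start on GRCh38.p14, 5′ to 3′ on the gene's strand. The table was made on hg19, and which start site HEL cells use is not known from these values. Capitals mark the letters searched on both strands, which were the E-box CACGTG, the CCAAT box (CCAAT or ATTGG), the GC box (GGGCGG or CCGCCC) and the TATA box (TATAAA or TTTATA). ABCC10 lies at chr6:43427613-43427912 on the + strand, ABCB6 at chr2:219218909-219219208 on the - strand, ABCC4 at chr13:95301402-95301701 on the - strand and ABCE1 at chr4:145098061-145098360 on the + strand.
ABCC10: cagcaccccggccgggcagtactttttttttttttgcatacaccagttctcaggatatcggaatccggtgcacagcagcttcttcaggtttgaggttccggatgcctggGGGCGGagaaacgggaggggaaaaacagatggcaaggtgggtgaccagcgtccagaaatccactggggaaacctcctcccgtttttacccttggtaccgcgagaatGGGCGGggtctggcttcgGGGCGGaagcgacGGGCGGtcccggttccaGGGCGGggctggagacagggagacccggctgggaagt
ABCB6: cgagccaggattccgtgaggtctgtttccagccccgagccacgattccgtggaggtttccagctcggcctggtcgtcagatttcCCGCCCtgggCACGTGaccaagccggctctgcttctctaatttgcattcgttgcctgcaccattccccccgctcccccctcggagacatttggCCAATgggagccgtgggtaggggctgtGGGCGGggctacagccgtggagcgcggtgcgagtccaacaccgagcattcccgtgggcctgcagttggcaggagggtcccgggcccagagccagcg
ABCC4: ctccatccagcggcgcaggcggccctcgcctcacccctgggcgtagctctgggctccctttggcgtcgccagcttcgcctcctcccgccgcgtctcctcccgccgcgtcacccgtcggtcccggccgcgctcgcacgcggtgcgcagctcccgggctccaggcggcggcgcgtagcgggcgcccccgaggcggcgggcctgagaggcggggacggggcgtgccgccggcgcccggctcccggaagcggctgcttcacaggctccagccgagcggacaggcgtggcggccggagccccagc
ABCE1: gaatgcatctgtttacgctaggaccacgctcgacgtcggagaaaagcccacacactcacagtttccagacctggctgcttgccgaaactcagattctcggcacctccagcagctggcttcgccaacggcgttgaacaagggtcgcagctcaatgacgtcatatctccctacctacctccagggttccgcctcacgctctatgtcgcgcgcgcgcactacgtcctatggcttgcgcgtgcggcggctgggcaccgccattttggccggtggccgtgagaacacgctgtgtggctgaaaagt
The ABCC10 window held 5 GC boxes, and the ABCB6 window held 2 GC boxes, 1 CCAAT box and 1 E-box. None of the 4 motifs was found in the ABCC4 or ABCE1 window, nor in that of ABCB1, which rose in both lines. RefSeq windows were matched for 17 of the 22 tested members. A GC box was in 6 of the 7 matched members that rose in both lines, in 0 of the 2 that fell in both, in 13 of all 17, and in 71% of the 8690 windows of tested genes (15786 of the 35116 windows of all genes). An E-box was in 2 of 17 members, ABCB6 and ABCF1, and in 10.6% of the windows of tested genes. The CCAAT box was in 4 of 17 members, against 37.2%, and the TATA box in 1, ABCC5, against 5.13%. These matches describe letters in a window, not binding.

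The line comparison asks how the resistant derivative differs from its parent. In untreated cells 1 tested member was higher in P/R, 4 were lower and 17 did not pass, where 23.5% of all tested genes passed, 11.7% higher and 11.9% lower. Under OTX015, 2 members were higher, 4 were lower and 16 did not pass, where 24.4% of all tested genes passed, 12.7% higher and 11.7% lower. The line and treatment comparisons draw on the same 8 libraries and are not independent of each other. The higher ones were efflux genes, ABCC3 in both states and ABCC1 under OTX015. ABCC5, ABCB9 and ABCF3 were lower in both states. The median log2 difference of the 5 efflux members was 0.16 untreated and 0.08 under OTX015, and that of the other 17 was -0.06 and -0.04, beside -0.01 over all tested genes in both states. Both efflux medians are the value of a single gene, ABCB1, which did not pass in either state. The untreated efflux median ran from 0.091 unfiltered to 0.22 without parental untreated replicate 1, and that under OTX015 reached 0.15 without P/R OTX015 replicate 2. The untreated median of the others ran from -0.13 without P/R untreated replicate 1 to 0.0050 unfiltered, and that under OTX015 from -0.085 without P/R OTX015 replicate 1 to 0.0051 with the median of neighbouring genes subtracted, so its sign was not stable. The most abundant efflux genes did not pass: for ABCB1 the 95% interval of the log2 difference ran from -0.00018 to 0.32 untreated and from -0.08 to 0.24 under OTX015, and for ABCC4 from -0.13 to 0.17 and from -0.09 to 0.20.

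ABCB9 had 25.7 and 23.2 FPKM in P/R cells under OTX015, against 32.4 and 34.5 FPKM in parental cells under OTX015 (log2 difference -0.44, adjusted p = 0.00325). Untreated, it had 19.7 and 22.1 FPKM in P/R cells, against 30.6 and 29.2 FPKM in parental cells (log2 difference -0.50, adjusted p = 0.00166). ABCF3, whose values are given above, was at 0.592 of the parental level under OTX015 (log2 difference -0.73 ± 0.07 SE, adjusted p = 0.000113) and at 0.724 untreated (log2 difference -0.45 ± 0.07 SE, adjusted p = 0.002). ABCA7 was lower in untreated P/R cells (log2 difference -0.41, adjusted p = 0.0269) and ABCB10 in P/R cells under OTX015 (log2 difference -0.23, adjusted p = 0.0327). The ABCA7 call was lost without P/R untreated replicate 1, P/R untreated replicate 2 or parental untreated replicate 1 (adjusted p = 0.143, 0.0588 and 0.171), without the variance trend (0.0553) and without the filter (0.0914). The ABCB10 call was lost without any one of 6 libraries, the 4 of treated cells (0.0774 to 0.159) and the 2 of untreated P/R cells (0.0546 each), and in a fit of only the groups compared (0.0506). The ABCC5 call in untreated cells was lost without P/R untreated replicate 2 (0.0552) or parental untreated replicate 1 (0.0602). The untreated count of 5 was lower without either of those libraries, and so was the share of all tested genes that passed.

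ABCC5 and ABCF3 are neighbours on chromosome 3, their promoter windows 168 kb apart on GRCh38.p14. The 40 tested genes nearest to them had a median log2 difference, P/R minus parental, of -0.48 under OTX015 and -0.40 untreated. Beside this, the differences under OTX015 and untreated were -0.54 and -0.33 for ABCC5 and -0.73 and -0.45 for ABCF3. With the local median subtracted, ABCC5 was at -0.062 under OTX015 (adjusted p = 0.584) and 0.072 untreated (adjusted p = 0.521). ABCF3 was at -0.25 under OTX015, which passed (adjusted p = 0.0394), and at -0.045 untreated (adjusted p = 0.713). Around ABCC3 on chromosome 17 the local median was -0.078 under OTX015 and -0.0037 untreated, and ABCC3 kept log2 differences of 1.24 and 1.90 (adjusted p = 5.15e-05 and 4.59e-06). ABCB9 on chromosome 12 kept -0.35 and -0.41 (adjusted p = 0.0134 and 0.00614) and ABCC1 on chromosome 16 kept 0.59 under OTX015 (adjusted p = 0.0013). The ABCA7 call in untreated cells and the ABCB10 call under OTX015 were lost (0.0634 and 0.297).

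**Figure D4:**
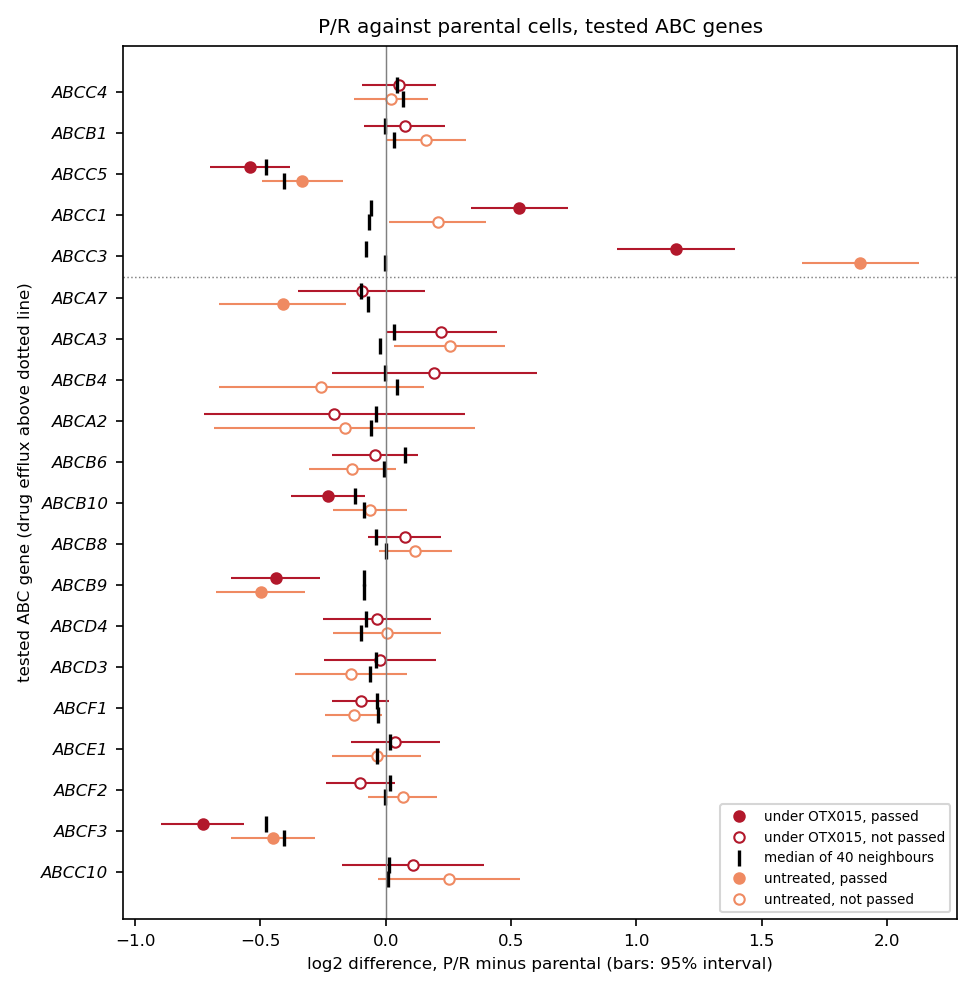
Difference between the lines for 20 tested ABC genes, as log2(FPKM + 1) of P/R minus parental (horizontal axis) with 95% intervals, under OTX015 and untreated; filled points passed at an adjusted p under 0.05, and black ticks are the median of the 40 nearest tested genes on the chromosome. ABCC3 stood far right of its neighbours, at 1.16 and 1.89, whereas the ticks of ABCC5 and ABCF3 were themselves shifted, to -0.48 and -0.40; ABCF3 under OTX015 lay below its tick, at -0.73.

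In a fit without the filter, 6 of the 23 members below it had 8 calls, and the 4 members at 0 in all 8 libraries did not enter it. Of the 16730 genes in that fit, 27.8% passed for OTX015 in P/R cells and 32.9% in parental cells. For P/R against parental cells, 14.7% passed untreated and 14.4% under OTX015. ABCG1, which exports cholesterol to lipoproteins, had 0.181 and 0.208 FPKM in P/R cells under OTX015, against 0.862 and 0.756 FPKM in parental cells under OTX015. Untreated, ABCG1 had 0.241 and 0.166 FPKM in P/R cells, against 0.850 and 1.19 FPKM in parental cells. Every P/R library lay below every parental library, and the difference passed in both states (log2 difference -0.60, adjusted p = 0.00761, and -0.74, adjusted p = 0.00377). ABCG4, a cholesterol exporter related to ABCG1, lay on the other side, with 0.278 and 0.224 FPKM in P/R cells under OTX015, against 0.0545 and 0.0539 FPKM in parental cells under OTX015 (adjusted p = 0.0223). Untreated, ABCG4 had 0.166 and 0.284 FPKM in P/R cells, against 0.104 and 0.105 FPKM in parental cells. That difference did not pass in limma (adjusted p = 0.103). ABCA1, the main exporter of cellular cholesterol, never exceeded 0.0599 FPKM in any library. ABCC6, which has near-identical pseudogene copies so that its reads may be divided, and ABCC9 fell under OTX015 in parental cells (adjusted p = 0.0197 and 0.0439), where their untreated means were 0.991 and 0.968 FPKM. ABCC2, an exporter of conjugates in liver, had 0.246 and 0.252 FPKM in P/R cells under OTX015, against 0.122 and 0.176 FPKM in untreated P/R cells, and ABCC11 had 0.0211 and 0.0119 FPKM, against 0.182 and 0.167 FPKM; both passed between these groups, and ABCC11 also between the untreated lines. At these levels the values are close to the limit of what the table resolves.

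Whether the lines responded differently to OTX015 was tested as the difference between the 2 treatment changes. No member passed in limma at an adjusted p under 0.05, where 0.08% of all tested genes did, 0.0622% up and 0.0178% down. ABCC3 had the largest difference, -0.74 on the log2(FPKM + 1) scale, P/R minus parental (95% interval -1.07 to -0.41, unadjusted p = 0.000673, adjusted p = 0.15). With a pseudocount of 5 in place of 1 this difference was -0.55 and passed (adjusted p = 0.00914), and with 0.1 it was -0.44 and did not pass (adjusted p = 0.626). As ratios of means, ABCC3 went to 0.327 of the untreated level in P/R and 0.411 in parental cells. ABCC1 had a difference of 0.32 (95% interval 0.05 to 0.60, adjusted p = 0.425) and ABCF3 one of -0.28 (95% interval -0.52 to -0.05, adjusted p = 0.423). For the other 19 members the 95% interval included 0; that of ABCB1 ran from -0.31 to 0.14 and that of ABCC4 from -0.18 to 0.24.

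Genes that work with the transporters were read from fixed lists, with the direction and count of those that passed. Over all tested genes, 22.5% rose and 21.8% fell under OTX015 in P/R cells, and 25.7% rose and 24.7% fell in parental cells. Of 9 tested genes of drug uptake, copper transport and vaults, 1 rose and 5 fell under OTX015 in P/R cells, and 0 rose and 5 fell in parental cells. That was 66.7% and 55.6% of the list, beside 44.3% and 50.4% of all tested genes. SLC19A1, the reduced folate and methotrexate carrier, fell by 0.71 in P/R and 0.88 in parental cells on the log2 scale. SLCO4A1, an organic anion importer, fell by 0.61 and 0.89, and the copper exporter ATP7B fell by 0.81 and 0.77. SLC29A2, an equilibrative nucleoside transporter, fell by 0.59 and 0.64. Between the lines, SLCO3A1, an organic anion carrier, was higher in P/R cells, by 1.34 under OTX015 and 1.21 untreated. Its levels were 15.4 and 14.1 FPKM in P/R cells under OTX015, against 6.13 and 4.42 FPKM in parental cells under OTX015, without overlap.

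Of 14 tested glutathione genes, which make or conjugate the co-substrate of MRP-type exporters, 5 rose and 2 fell under OTX015 in P/R cells, and 6 rose and 2 fell in parental cells. These made 50% and 57.1% of the list, near the 44.3% and 50.4% of all tested genes. GCLC, the catalytic subunit for glutathione synthesis, rose by 0.68 in P/R and 0.60 in parental cells, while MGST2 and MGST1, microsomal glutathione transferases, fell in both lines. GSTA4, a soluble transferase, rose by 0.63 in parental cells (adjusted p = 0.00113) and had a log2 change of -0.14 in P/R cells that did not pass (adjusted p = 0.333); the difference between these changes, -0.76, did not pass either (adjusted p = 0.15). In P/R against parental cells, 5 were higher and 4 lower under OTX015, and 4 were higher and 4 lower untreated. That was 64.3% and 57.1% of the list, beside 24.4% and 23.5% of all tested genes. GSTP1, the main soluble transferase of many tumours, had 249.98 and 245 FPKM in P/R cells under OTX015, against 118 and 128 FPKM in parental cells under OTX015. Untreated, GSTP1 had 209 FPKM in both P/R libraries, against 108 and 101 FPKM in parental cells (log2 difference 0.99, adjusted p = 2.93e-06). The transferase GSTM3 was lower in P/R cells, by 0.57 under OTX015 and 0.55 untreated. GSTA4 was lower in P/R cells by 0.68 under OTX015 (adjusted p = 0.0015) and did not pass untreated (log2 difference 0.08).

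Of 19 tested haem and iron-sulphur genes, partners of ABCB6 and ABCB10, 5 rose and 6 fell under OTX015 in P/R cells, and 5 rose and 5 fell in parental cells. That was 57.9% and 52.6% of the list, beside 44.3% and 50.4% of all tested genes. The haem synthesis enzymes CPOX and ALAD rose, by 0.61 and 0.64 in P/R cells and by 0.88 and 0.55 in parental cells. The list thus held rises and falls in nearly equal number. Of 19 tested peroxisome genes, 5 rose and 0 fell in P/R cells, and 5 rose and 1 fell in parental cells. These made 26.3% and 31.6% of the list, below the 44.3% and 50.4% of all tested genes. The beta-oxidation enzyme ACAA1 rose by 0.60 in P/R cells and 0.58 in parental cells, and the biogenesis factor PEX16 rose by 0.51 and 0.50. ACOX3, an oxidase of branched-chain fatty acids, rose by 0.63 in parental cells (adjusted p = 0.00131) and did not pass in P/R cells (log2 change 0.30, adjusted p = 0.0522).

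Of 14 tested ribosome recycling and initiation genes, 1 rose and 5 fell under OTX015 in P/R cells, and 0 rose and 6 fell in parental cells. That was 42.9% of the list in each line, beside 44.3% and 50.4% of all tested genes. HBS1L, which rescues stalled ribosomes ahead of ABCE1, fell by 0.48 in P/R and 0.77 in parental cells. EIF2S2 and GSPT1 also fell in both lines, and EIF1 was lower in P/R cells by 0.52 under OTX015 and 0.69 untreated. Superfamily genes with other names were read beside the members. TAP2, a subunit of the antigenic peptide transporter, fell by 0.35 in P/R and 0.33 in parental cells, TAP1 fell by 0.43 in parental cells and did not pass in P/R cells (-0.14), and CFTR was not tested.

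Transcription factors known to regulate ABC genes moved in both directions, with 4 of 13 tested higher and 2 lower under OTX015 in P/R cells, and 6 higher and 2 lower in parental cells. That was 46.2% and 61.5% of the list, beside 44.3% and 50.4% of all tested genes. AHR, the aryl hydrocarbon receptor, rose by 0.64 in P/R and 0.83 in parental cells, and NR1I3 (CAR), a xenobiotic receptor, fell by 0.99 and 0.94. SREBF1 was higher in P/R cells by 0.69 under OTX015 and 0.64 untreated. Of 8 tested LXR target genes, a sterol-responsive set, 3 rose and 2 fell in each line under OTX015. That was 62.5% of the tested genes of the set in each line. ABCA1 and ABCG1 belong to this set but lay below the filter and are not among the 8. In P/R against parental cells 1 was higher and 4 were lower in both states, 62.5% of the 8, beside 24.4% of all tested genes under OTX015 and 23.5% untreated. The higher gene was SREBF1, already counted among the transcription factors. APOE, the apolipoprotein E gene, was lower in P/R cells by 2.67 under OTX015, with 4.56 and 3.85 FPKM in P/R cells, against 31.0 and 32.9 FPKM in parental cells. APOC1 and PLTP, which encode lipoprotein components, were lower by 0.75 and 0.80 under OTX015 and by 0.98 and 0.61 untreated. Several of these lists passed near the share of all tested genes, and no list was tested as a set.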

How the data were processed

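RNA sequencing libraries from 8 samples in 4 groups of 2 were analysed from 1 table that the authors deposited. Its values are taken as FPKM that the authors quantile normalized: the header names no unit, no value is negative, and once each library is sorted its values match those of the others to within 0.136% (ranks averaging 1 FPKM or above). TopHat2 2.0, Cufflinks 2.0 and hg19 are named in the submitters' processing notes; the sources used here do not state the settings, the annotation, strandedness or poly(A) selection. The library totals average 678133 FPKM after this normalization. Depth is therefore unknown and no counting interval can be given, and a global change in RNA would not be seen. Reads of overlapping genes on opposite strands cannot be told apart.

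Genes with at least 1 FPKM in at least 2 libraries (11255) were fitted as log2(FPKM + 1), with 4 group means, in limma 3.58.1 (R 4.3.3; empirical Bayes with a variance trend, 4 residual and 5.23 prior degrees of freedom). Tests are two-sided, with Benjamini-Hochberg adjustment over all tested genes at a threshold of 0.05. Log2 changes are on this scale, which understates changes of low genes; folds are ratios of mean FPKM. With 2 libraries against 2, an exact two-sided permutation test cannot go below 0.333, and each call rests on spread shared among genes and groups.

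The members, lists and named genes (members; from each partner list at most 4 genes for the treatment and 4 for the line comparisons, taken from those with the largest passing change in any one of them) were chosen with earlier results of these data known. Some genes enter the fits and counts and are not reported by name here. Gene order came from GENCODE release 29 and promoters from RefSeq (GRCh38.p14), matched by identifier or symbol. The fit was tested on simulated data with planted changes before use. Alternatives were pseudocounts of 0.1 and 5, all genes unfiltered, a floor of 5 FPKM on the mean, a constant prior variance, centring on library medians, a replicate block, fits restricted to the compared groups, subtraction of the median of the 40 nearest genes for line differences, and each library left out in turn. Where this left 1 library in a group, that library was assumed to vary like the others.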

Additional observations from a re-analysis of the deposited data

How the results depend on the processing

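In untreated P/R against parental cells the count of 5 fell to 2 with the local chromosome median subtracted (ABCC3 higher and ABCB9 lower remained), and was 3 to 5 with 1 library left out. Over all tested genes the untreated share went from 23.5% to 19% with that median subtracted. Shares for the treatment and line comparisons also moved with 1 library left out. The difference in response had a count of 0 and gave 1 (ABCC3) with a pseudocount of 5, where 0.258% of all tested genes passed, against 0.08%. The ABCC5 difference between untreated lines, -0.33, became 0.072 with the local median of -0.40 subtracted. That value did not pass in limma (adjusted p = 0.521), and the cause of the local shift was not tested. With 1 library left out, the count for OTX015 in P/R cells moved in both directions. The counts in parental cells and for the lines under OTX015 fell or held. Of 38 single-member calls, 25 held in every setting run for them, among them both ABCB1, ABCC4, ABCC10, ABCB6 and ABCE1 calls under OTX015 and both ABCC3 calls between the lines.

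Same-numbered libraries are not described as paired, and their deviations correlated at -0.12 to 0.10 between groups. With 2 libraries per group these correlations cannot decide whether any libraries were paired. With a replicate block the counts were 12 and 14 for OTX015 in P/R and parental cells, where 43.3% and 49.4% of all tested genes passed. For the lines under OTX015 and untreated they were 6 and 5, where 22.7% and 22.4% passed. In that fit 0 members differed in response, where 0.0178% passed. A crossed block for the lines under OTX015, added after seeing the data because of the correlation of -0.12, also gave 6. It called 27.6% of all tested genes, against 20.1% in a fit of the same groups without a block.

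Over all genes, counts of calls for the difference in response ran from 2 to 29 around 9. With 2 libraries per group and unknown depth, small changes and members under 1 FPKM are poorly resolved; ABCG2 is among them.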
